A study of Homo sapiens with 18 samples.

Results

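Cholesterol and fatty acid synthesis was followed through 30 genes, chosen by symbol as the enzymes of the mevalonate, sterol and fatty acid routes together with regulators and a sterol carrier that act beside them, out of 23411 gene symbols counted. The choice was made with earlier results of these data known. All 30 had reads in every library, from 88 to 16745 reads per gene and library, and all 30 passed the filter on low counts in every comparison. Poly(A) RNA was sequenced from ARPE-19 cells, a spontaneously arisen human retinal pigment epithelium line, in 6 groups of 3 libraries. Both kinds of cells had received lentiviral particles that express the nuclease Cas9. Control cells, given the genotype WT in the labels, got particles with no gRNA, and NRF2 ΔC cells got a gRNA against exon 5 of NFE2L2 and are a single edited clone whose alleles both carry an early stop that removes the C-terminal end of NRF2. A difference between the cell kinds is therefore a difference between those cells and 1 clone. Each kind was left with water (untreated), treated with 1 mM NACET (the ethyl ester of N-acetylcysteine, a cell-permeable cysteine donor) or treated with 0.2 mM H2O2. The labels of the samples give a treatment of 2 hours after 22 hours in 1% serum, and the description of the series gives 8 hours after 40 hours in 10% serum. The labels alone do not settle the duration. The authors' paper gives 8 hours of treatment, begun 40 hours after seeding, and 10% serum.

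Cholesterol is built from acetyl-CoA through mevalonate and isoprenoid units to squalene, which is folded into lanosterol and trimmed to cholesterol in the endoplasmic reticulum, and fatty acids are built from the same acetyl-CoA, then elongated and desaturated. Genes of both routes are classical targets of the SREBP transcription factors, encoded by SREBF1 and SREBF2, which are kept in the endoplasmic reticulum by INSIG proteins when sterols are plentiful. SREBPs bind sterol regulatory elements and act together with NF-Y, which binds CCAAT boxes. In the retinal pigment epithelium, lipid handling is tied to the daily uptake of photoreceptor membrane. NRF2 is a transcription factor that is held down by KEAP1 and released by oxidants and electrophiles.

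The libraries held 16673306 to 25951154 reads on genes, and the 30 genes took 0.236 to 0.434% of them. NQO1, a classical NRF2 target, had 170 to 335 CPM (TMM-scaled reads, at a common library size) in untreated control cells, 687 to 998 CPM with H2O2 and 1046 to 1195 CPM with NACET, and 11.3 to 22.6 CPM in the NRF2 ΔC libraries. HMOX1, also an NRF2 target, had 46.3 to 66.2 CPM in untreated control cells, 274 to 545 CPM with H2O2 and 198 to 357 CPM with NACET. In NRF2 ΔC cells HMOX1 had 39.1 to 54.0 CPM untreated, 112 to 246 CPM with H2O2 and 42.2 to 81.1 CPM with NACET. NFE2L2 itself lay between 102 and 152 CPM in all libraries, and gene-level counts do not show the edit. The marker genes were in part those of the labelled tissue. MITF (64.9 to 187 CPM), OTX2 (106 to 181 CPM), KRT8 and KRT18 were present, but RPE65, RGR and TTR, which define the mature epithelium, did not exceed 0.1 CPM in any library. Of 6 photoreceptor markers, CRX, SAG and GNAT1 had no read in any library. The other photoreceptor markers had few reads, NRL with 0.293 to 0.975 CPM, ARR3 with 0.118 to 0.667 CPM and RCVRN with 0 to 0.103 CPM. Of 6 fibroblast markers, COL1A2, DCN, LUM and THY1 stayed below 0.1 CPM while COL1A1 (27.0 to 174 CPM) and PDGFRB (86.3 to 458 CPM) were present.

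The starts of 6 of the genes are shown. INSIG1, HMGCS1, MVD, LSS and ELOVL6 passed the threshold in a comparison below. SREBF2 passed in none of them. Of the 27 members with a window, it is the only 1 whose window held the sterol regulatory element core as searched here. HSD17B7 and IDI1 also passed but are not shown. CCAAT boxes, which the choice of the 30 genes did not use, were frequent in the members. RefSeq start windows on GRCh38.p14, each running from 250 bases before to 50 bases after a transcript's start, were given for 27 of the 30 genes, in 39 windows. The 5 letters CCAAT, searched on both strands (ATTGG on the other), occurred in 25 of the 39 windows (64.1%) and in 34.6% of all 35116 windows. By gene they occurred in 21 of the 27. Windows of 1 gene can overlap, as those of SC5D and those of ACLY do, so the same match can count more than once. The sterol regulatory element core TCACNCCAC, or GTGGNGTGA on the other strand, occurred in 1 of the 39 windows (2.56%), that of SREBF2, and in 1.13% of all windows. An E-box, CACGTG, which overlaps neither of these, was in 4 windows (10.3% against 7.26% of all windows), and the antioxidant response element core TGACNNNGC, or GCNNNGTCA on the other strand, was in 3 windows (7.69% against 13.3%), those of HMGCS1, EBP and LPIN1. In HMGCS1 the antioxidant response element core lay only in the second window, which is not shown. A match of letters is a description of the window and no proof of a bound site. Only these exact letters and windows were searched, so a window without a match does not show that the gene lacks the element. The windows shown are those of INSIG1 (chr7:155297628-155297927, plus strand), HMGCS1 (chr5:43313363-43313662, minus strand, the first of 2 windows), MVD (chr16:88663042-88663341, minus strand), LSS (chr21:46228725-46229024, minus strand), SREBF2 (chr22:41832855-41833154, plus strand) and ELOVL6 (chr4:110198566-110198865, minus strand). They are written 5′ to 3′ in the direction of the gene, with the CCAAT box and the sterol regulatory element core in capitals.
INSIG1: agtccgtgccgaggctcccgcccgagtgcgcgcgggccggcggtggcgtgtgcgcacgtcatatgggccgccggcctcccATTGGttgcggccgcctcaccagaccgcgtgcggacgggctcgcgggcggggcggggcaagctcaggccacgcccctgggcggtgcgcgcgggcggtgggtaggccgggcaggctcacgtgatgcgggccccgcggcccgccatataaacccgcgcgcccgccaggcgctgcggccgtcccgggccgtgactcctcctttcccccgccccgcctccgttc
HMGCS1: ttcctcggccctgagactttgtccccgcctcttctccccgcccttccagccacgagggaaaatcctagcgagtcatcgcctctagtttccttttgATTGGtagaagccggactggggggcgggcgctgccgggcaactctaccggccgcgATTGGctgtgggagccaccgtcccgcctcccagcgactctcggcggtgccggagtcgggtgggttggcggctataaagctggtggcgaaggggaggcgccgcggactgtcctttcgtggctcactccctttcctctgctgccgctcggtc
MVD: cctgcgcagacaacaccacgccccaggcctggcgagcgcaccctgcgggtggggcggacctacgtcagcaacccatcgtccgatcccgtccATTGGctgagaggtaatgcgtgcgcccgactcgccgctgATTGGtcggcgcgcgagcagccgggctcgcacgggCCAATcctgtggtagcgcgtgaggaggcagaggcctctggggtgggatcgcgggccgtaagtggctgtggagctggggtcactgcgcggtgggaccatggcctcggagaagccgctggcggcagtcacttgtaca
LSS: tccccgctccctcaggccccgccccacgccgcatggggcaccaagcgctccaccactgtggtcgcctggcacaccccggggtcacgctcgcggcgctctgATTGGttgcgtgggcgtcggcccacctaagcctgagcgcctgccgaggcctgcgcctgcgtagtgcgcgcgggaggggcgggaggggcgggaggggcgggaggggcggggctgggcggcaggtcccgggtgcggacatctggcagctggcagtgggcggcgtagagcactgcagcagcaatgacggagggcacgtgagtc
SREBF2: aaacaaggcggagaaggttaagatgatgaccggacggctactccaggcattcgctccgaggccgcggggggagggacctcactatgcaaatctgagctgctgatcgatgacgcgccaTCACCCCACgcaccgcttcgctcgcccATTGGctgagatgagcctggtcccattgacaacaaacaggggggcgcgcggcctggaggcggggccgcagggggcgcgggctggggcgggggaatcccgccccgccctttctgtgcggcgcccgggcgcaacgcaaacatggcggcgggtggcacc
ELOVL6: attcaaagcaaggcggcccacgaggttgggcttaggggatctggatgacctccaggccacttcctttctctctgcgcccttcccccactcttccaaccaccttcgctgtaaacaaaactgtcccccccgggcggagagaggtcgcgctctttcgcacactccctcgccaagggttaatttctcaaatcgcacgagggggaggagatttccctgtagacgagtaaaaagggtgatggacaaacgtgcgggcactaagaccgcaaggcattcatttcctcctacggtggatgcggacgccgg
INSIG1 and LSS each held 1 CCAAT box in the window, HMGCS1 held 2 and MVD held 3. SREBF2 held the sterol element and, downstream of it, 1 CCAAT box. ELOVL6, the member called with NACET, held neither.

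In untreated control cells the members spanned a wide range of levels. Per kilobase of exon, the highest were SCD (58.2 CPM per kilobase), the desaturase that makes oleate, ACLY (56.9), which supplies cytosolic acetyl-CoA, and FASN (47.4), the fatty acid synthase. SREBF2, which encodes the main SREBP of sterol synthesis, followed at 40.9 CPM per kilobase, and SREBF1 had 9.06. The lowest were MVK (1.46), the mevalonate kinase, HSD17B7 (2.28), a reductase of late sterol synthesis, and SC5D (2.83), the lathosterol desaturase. These levels use the union of all annotated exons as gene length, so a gene with many unused exons appears lower than it is.

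The libraries of a group did not sit at one level for these genes. In untreated control cells the members' median deviation from their mean over the 18 libraries (log2 scale) was 0.18 in replicate 1, 0.46 in replicate 2 and -0.016 in replicate 3, and in control cells with NACET it was 0.24, 0.51 and -0.091. In NRF2 ΔC cells replicate 1 was the high one, at 0.19, 0.016 and -0.062 for replicates 1, 2 and 3 when untreated. INSIG1, for example, ran from 23.1 to 59.1 CPM among the untreated control libraries. Within a cell kind, libraries with the same replicate number deviated together over 11007 genes (correlations of 0.471 to 0.874), so values from a fit that blocks on that number are given where they change a call.

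**Figure D1:**
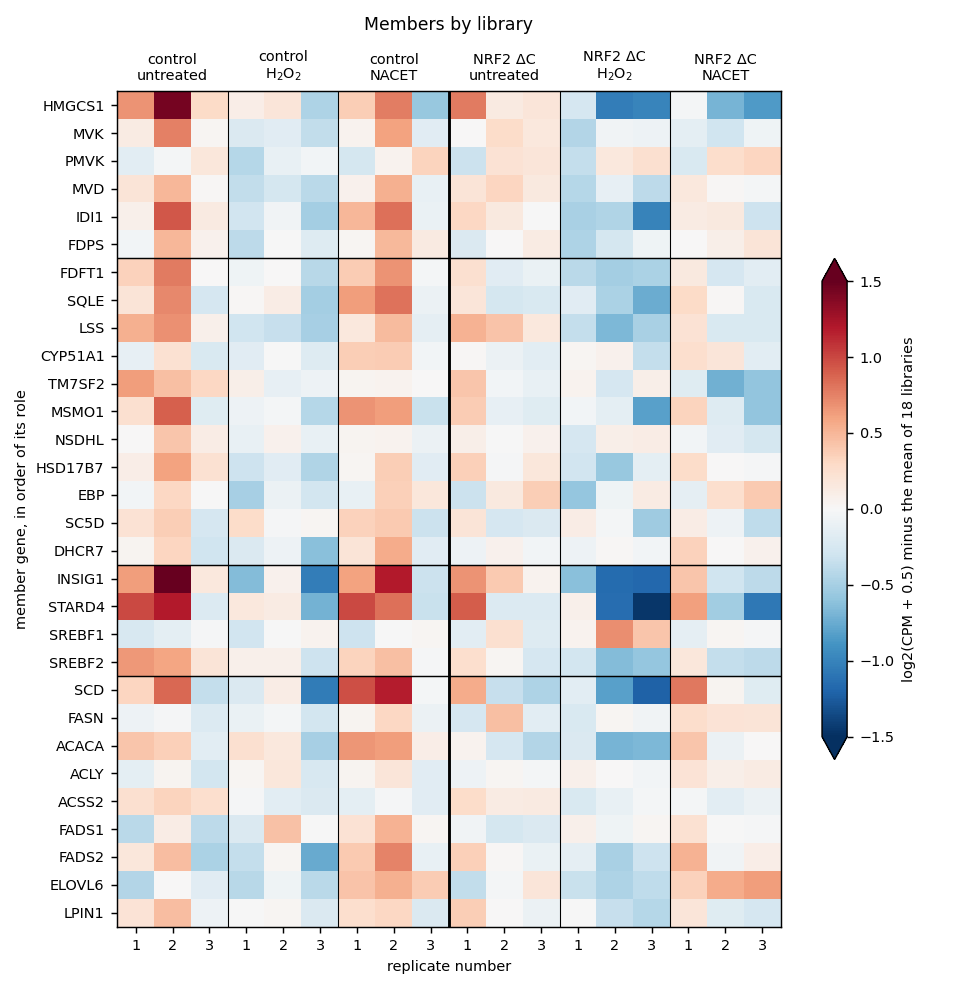
Heat map of the 30 members (rows, grouped from top to bottom as mevalonate steps, sterol steps, regulators and sterol transport, and fatty acid and lipid steps) in the 18 libraries (columns, numbered by replicate within each group). Colour gives log2(CPM + 0.5) minus the gene's mean over the 18 libraries. Most sterol and mevalonate rows are blue in the H2O2 columns of both cell kinds, and replicate 2 of the untreated and NACET control cells is the reddest column.

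H2O2 in control cells lowered a small number of the genes past the threshold, and nearly all of the others had negative differences. INSIG1, HSD17B7, LSS and MVD fell (4 of 30, or 13.3%, where 3.37% of 13691 genes tested fell), and no member rose (2.96% of all genes rose). A gene counted as called when its adjusted p was below 0.05 and its log2 fold change reached 0.6 in size. The median log2 fold change was -0.39 over the members and -0.004 over all genes. By role it was -0.61 for the 6 mevalonate genes, -0.38 for the 11 sterol genes, -0.72 for the 4 regulators and transport genes and -0.22 for the 9 fatty acid and lipid genes. All 17 mevalonate and sterol genes had negative values, from -0.92 to -0.032.

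INSIG1, whose protein retains SREBPs in the endoplasmic reticulum and whose mRNA is itself an SREBP target, had 32.2, 59.1 and 23.1 CPM in the untreated control libraries and 13.0, 21.7 and 9.81 CPM with H2O2. The groups did not overlap, and the level was 2.56-fold lower (log2 fold change -1.35, SE 0.38, adjusted p = 0.0498), just inside the threshold. LSS, the enzyme that closes squalene epoxide into lanosterol, had 120, 134 and 87.8 CPM untreated and 67.2, 65.4 and 58.7 CPM with H2O2. All LSS libraries with H2O2 lay below all untreated ones (log2 fold change -0.83, SE 0.15, adjusted p = 0.0133). MVD, which decarboxylates mevalonate diphosphate to the first isoprenoid unit, had 22.4, 27.6 and 19.7 CPM untreated and 15.0, 16.1 and 14.6 CPM with H2O2 (log2 fold change -0.61, SE 0.14, adjusted p = 0.0285). HSD17B7 had 9.20, 13.4 and 10.2 CPM untreated and 6.84, 7.55 and 6.13 CPM with H2O2 (log2 fold change -0.67, SE 0.17, adjusted p = 0.0398). HSD17B7 has a near-identical pseudogene copy, HSD17B7P2, counted as a gene of its own, so its value is uncertain to the extent that reads could be placed on either. Neither MVD nor HSD17B7 overlapped between the groups.

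The remaining 26 members did not pass. TM7SF2, a sterol reductase, and ACSS2, which makes acetyl-CoA from acetate, had adjusted p of 0.0264 and 0.034 but log2 fold changes of -0.51 and -0.41, short of the limit. HMGCS1, which makes HMG-CoA at the entry of the mevalonate route, had the second largest value of the members, -0.92 (95% interval -1.58 to -0.26, adjusted p = 0.0691), and STARD4, a cytosolic sterol carrier, had -0.90 (adjusted p = 0.14). IDI1, the isomerase of isoprenoid units, had -0.71 (adjusted p = 0.0793) and SREBF2 had -0.54 (adjusted p = 0.0532). Positive values were those of FADS1 (0.31), a fatty acid desaturase, ACLY (0.12) and SREBF1 (0.063).

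Taken within same-numbered pairs, 24 of the 30 members were lower with H2O2 in all 3 pairs of control libraries and 2, ACLY and FADS1, were higher in all 3. Counts within pairs, here and below, were not made over all genes, so no share of all genes stands beside them. The members' median shift was -0.33, -0.49 and -0.31 in pairs 1, 2 and 3. With the replicate block, 9 members fell (30% of them, where 5.97% of all genes fell), the 4 above together with HMGCS1 (log2 fold change -0.88), STARD4 (-0.87), IDI1 (-0.69), SCD (-0.66) and MVK (-0.60). The replicate block leaves few degrees of freedom for each gene and takes most of its error from the spread pooled over genes (median total degrees of freedom 16.1 against 8.47 without the block), so its calls rest on that pooling. Leaving out 1 library at a time, the number of members called was 0 without H2O2 replicate 2, 11 without untreated replicate 3, and 1 or 2 without each of the others. LSS stayed called in 5 of the 6 such fits, HSD17B7 in 2 and INSIG1 and MVD in 1 each.

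**Figure D2:**
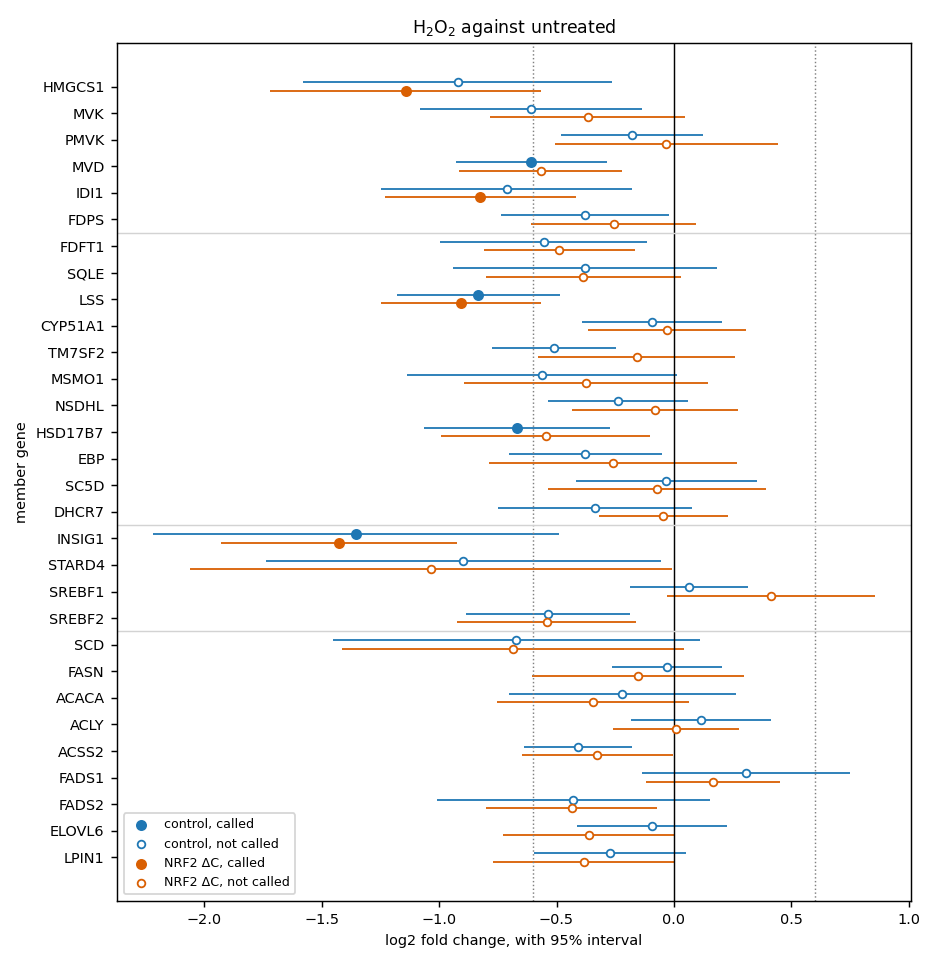
Log2 fold change with H2O2 against untreated for the 30 members, with 95% intervals, in control cells (blue) and NRF2 ΔC cells (orange). Filled points were called, the dotted lines mark the limit of 0.6 in either direction, and grey lines separate the roles. INSIG1, at -1.35 and -1.43, lies farthest to the left in both cell kinds.

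In NRF2 ΔC cells H2O2 again lowered INSIG1 and LSS, now with HMGCS1 and IDI1. These 4 of 30 members (13.3%) fell, where 5.55% of 13543 genes fell, and no member rose, where 4.26% of all genes rose. The members' median log2 fold change was -0.37 against -0.009 over all genes, with -0.47 for the mevalonate genes, -0.26 for the sterol genes, -0.79 for the regulators and transport genes and -0.34 for the fatty acid and lipid genes. The 17 mevalonate and sterol genes all had negative values, from -1.14 to -0.028.

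INSIG1 had 33.3, 27.3 and 21.4 CPM in untreated NRF2 ΔC cells and 13.2, 9.03 and 8.84 CPM with H2O2, 2.69-fold lower (log2 fold change -1.43, SE 0.22, adjusted p = 0.00761). HMGCS1 had 109, 69.3 and 71.6 CPM untreated and 53.3, 30.5 and 31.5 CPM with H2O2 (log2 fold change -1.14, SE 0.26, adjusted p = 0.0256). Replicate 1 was the highest library of HMGCS1 in both groups, and the groups did not overlap. LSS had 120, 112 and 92.4 CPM untreated and 64.8, 51.8 and 59.1 CPM with H2O2 (log2 fold change -0.91, SE 0.15, adjusted p = 0.00923). IDI1 had 41.5, 37.2 and 33.3 CPM untreated and 23.7, 24.3 and 16.5 CPM with H2O2 (log2 fold change -0.82, SE 0.18, adjusted p = 0.0242). The groups of LSS and IDI1 did not overlap either. Of the exon bases of IDI1, 15.0% also lie in IDI2-AS1, and the counting took no account of strand.

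Of the 26 members that did not pass, MVD came closest (-0.57, adjusted p = 0.0468, under the fold limit), and STARD4 had the largest value, -1.03 (95% interval -2.06 to -0.01, adjusted p = 0.166). STARD4 had 21.4, 9.66 and 9.64 CPM untreated and 11.8, 4.77 and 3.76 CPM with H2O2, so its groups overlapped through replicate 1. SCD had 352, 187 and 173 CPM untreated and 214, 136 and 102 CPM with H2O2 (log2 fold change -0.68, adjusted p = 0.191), also with overlap. SREBF1 (0.41, adjusted p = 0.193), FADS1 (0.17) and ACLY (0.009) had positive values.

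Within pairs, 20 members were lower with H2O2 in all 3 pairs of NRF2 ΔC libraries, with median shifts of -0.36, -0.33 and -0.28, and SREBF1 and FADS1 were higher in all 3. With the replicate block 6 members fell (20.0%, where 11.5% of all genes fell), the 4 above with STARD4 (-1.08) and SCD (-0.67). In this blocked fit the median total degrees of freedom were 110.7, against 9.08 without the block, so its error came almost wholly from the spread pooled over genes. The count was 1 without untreated or H2O2 replicate 2, 2 without untreated or H2O2 replicate 3 and 7 without H2O2 replicate 1. INSIG1 stayed called in 6 of 6 such fits, LSS in 4, HMGCS1 in 2 and IDI1 in 1.

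The sums of marker genes differed between treatments. The sum of 13 epithelial markers is here almost wholly KRT8, KRT18, MITF and OTX2, as no other of them exceeded 6.87 CPM in any library. It was 1343 to 1396 CPM in untreated control cells and 961 to 1036 CPM with H2O2. In NRF2 ΔC cells it was 1304 to 1425 CPM untreated and 965 to 1074 CPM with H2O2. With NACET the sums were 1121 to 1270 CPM in control cells, below the untreated libraries, and 1115 to 1328 CPM in NRF2 ΔC cells, which overlapped them. BEST1, a chloride channel of the epithelium, went the other way with H2O2, from 0.386 to 0.502 CPM untreated to 1.36 to 1.66 CPM in control cells and from 0.185 to 0.342 CPM to 2.98 to 3.54 CPM in NRF2 ΔC cells, without overlap. Summed over 6 fibroblast markers, which here is COL1A1 and PDGFRB, control cells had 354 to 632 CPM untreated and 218 to 339 CPM with H2O2, and NRF2 ΔC cells 256 to 471 CPM and 123 to 244 CPM. With NACET these sums were 221 to 395 CPM and 137 to 316 CPM, overlapping the untreated libraries in both cell kinds. The part of the markers in the values of the members, with H2O2 or with NACET, was not tested. In bulk RNA, less of an mRNA per cell cannot be told apart from fewer cells that make it.

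**Figure D3:**
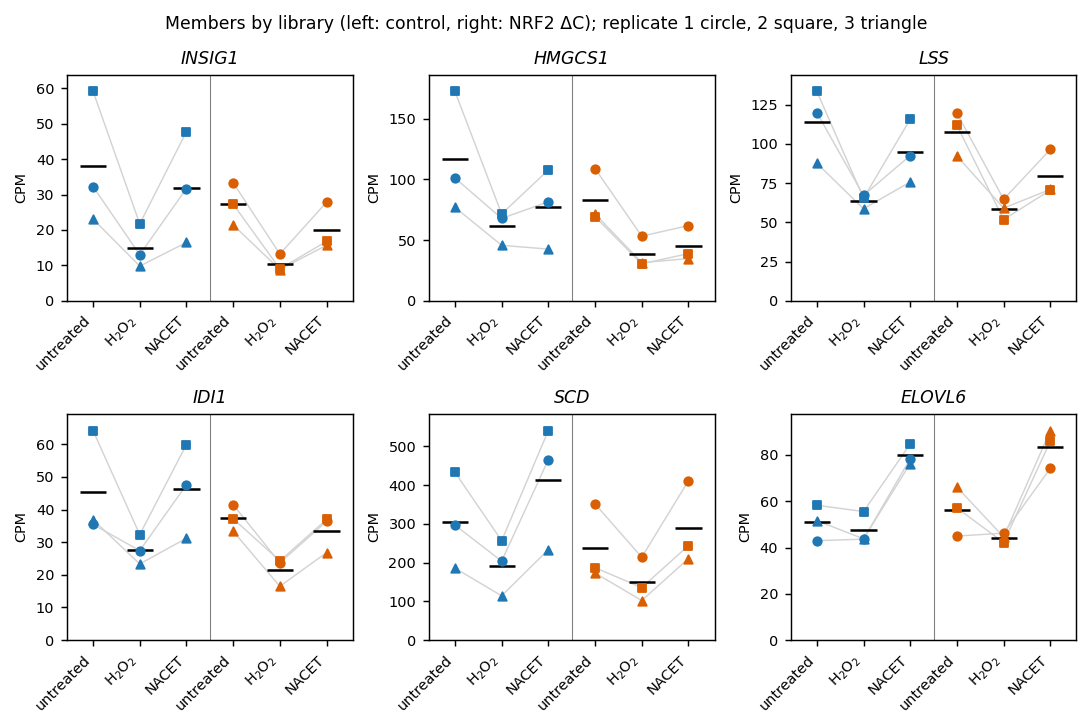
CPM (vertical axes, from 0) of INSIG1, HMGCS1, LSS, IDI1, SCD and ELOVL6 in each library, by treatment, for control cells (blue, left) and NRF2 ΔC cells (orange, right). Black bars are means of 3 libraries, symbols give the replicate number and grey lines join libraries with the same number. The lines of INSIG1 and LSS fall from untreated to H2O2 in all 6 pairs, and ELOVL6 is highest with NACET.

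With NACET no mevalonate or sterol gene passed the threshold in control cells. ELOVL6, the elongase that takes palmitate to stearate, rose in these cells as the only member to be called (1 of 30, or 3.33%, where 1.39% of 13696 genes rose), and no member fell (1.35% of all genes fell). ELOVL6 had 43.0, 58.3 and 51.6 CPM untreated and 78.4, 84.7 and 76.3 CPM with NACET, without overlap, 1.58-fold higher (log2 fold change 0.66, SE 0.13, adjusted p = 0.0346). It stayed called in 1 of 6 leave-one-out fits, the one without NACET replicate 3, and its log2 fold change ranged from 0.55 to 0.77. The median over the members was 0.04, against -0.006 over all genes, with 0.27 over the 9 fatty acid and lipid genes, -0.013 over the mevalonate genes, 0.015 over the sterol genes and -0.20 over the regulators and transport genes.

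Of the 29 members not called with NACET in control cells, FADS1 (0.49, adjusted p = 0.174) and SCD (0.45, adjusted p = 0.544) had the largest positive values and HMGCS1 (-0.59, adjusted p = 0.424) and TM7SF2 (-0.43, adjusted p = 0.0744) the largest negative ones. HMGCS1 had 101, 173 and 77.04 CPM untreated and 81.6, 108 and 42.6 CPM with NACET, lower in each pair but with overlapping groups. ACSS2, at 28.5, 30.4 and 28.7 CPM untreated and 21.6, 23.7 and 21.3 CPM with NACET, did not overlap but missed the threshold (-0.39, adjusted p = 0.076). Within pairs 10 members were higher in all 3 and 9 lower in all 3, counts without a share over all genes.

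No member was called with NACET in NRF2 ΔC cells by edgeR, where 0.458% of 13542 genes rose and 0.93% fell. At an unadjusted p under 0.05 there were 6, and DESeq2 called 1, HMGCS1, which fell. ELOVL6 had 44.9, 57.1 and 66.1 CPM untreated and 74.2, 86.0 and 90.5 CPM with NACET, also without overlap (log2 fold change 0.56, SE 0.16, adjusted p = 0.12). HMGCS1 had 109, 69.3 and 71.6 CPM untreated and 62.0, 38.9 and 34.8 CPM with NACET, without overlap (log2 fold change -0.89, SE 0.26, adjusted p = 0.126). TM7SF2 had 36.8, 26.7 and 25.5 CPM untreated and 24.2, 16.6 and 18.1 CPM with NACET, again without overlap (log2 fold change -0.61, SE 0.20, adjusted p = 0.16). With the replicate block HMGCS1 (-0.91) and TM7SF2 (-0.61) fell (6.67% of members, where 5.15% of all genes fell), a share near that of all genes. Over the members the median was -0.065, against -0.007 over all genes. Within pairs 9 members were higher in all 3 and 14 lower in all 3, again without a share over all genes.

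**Figure D4:**
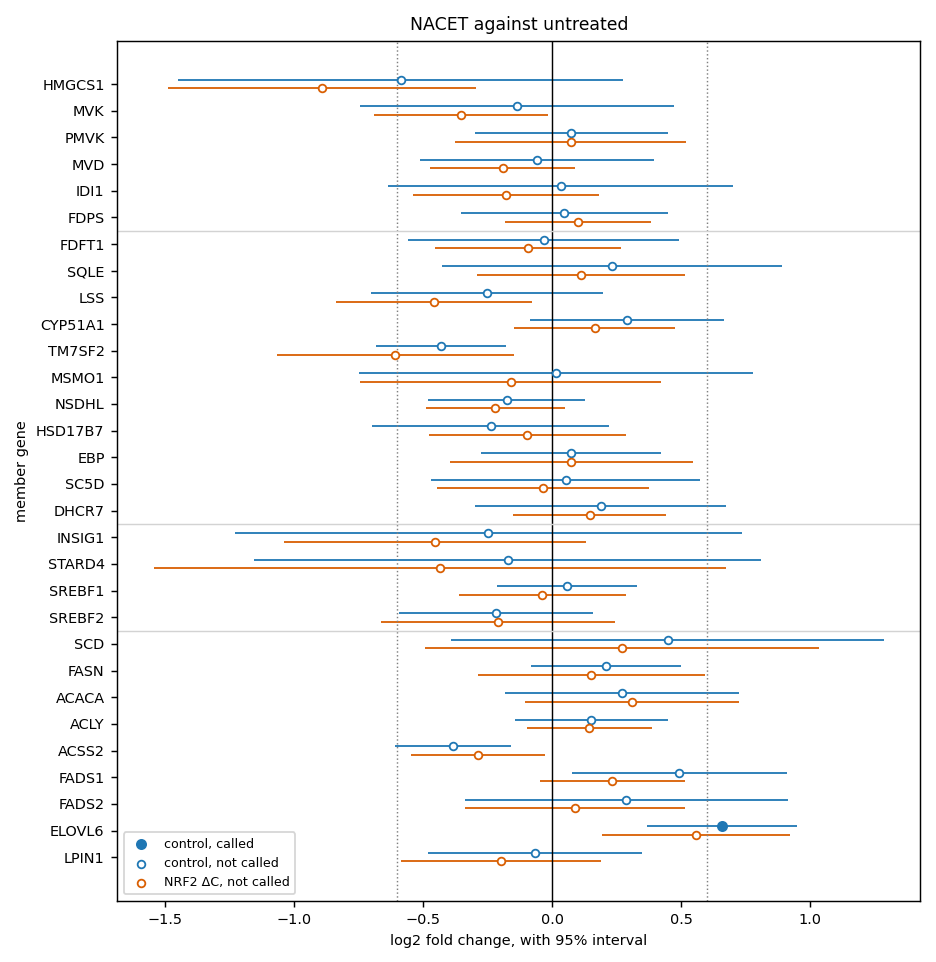
Log2 fold change with NACET against untreated for the 30 members, with 95% intervals, in control cells (blue) and NRF2 ΔC cells (orange). The filled point is ELOVL6 in control cells, at 0.66, the only call; the dotted lines mark the limit of 0.6 in either direction.

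NACET and H2O2 were also compared with each other within each cell kind. These comparisons share the H2O2 and NACET libraries with those above and are no separate evidence. ELOVL6 was higher with NACET than with H2O2 in control cells, at 78.4, 84.7 and 76.3 against 43.6, 55.5 and 43.8 CPM (log2 fold change 0.76, SE 0.12, adjusted p = 0.0117). It was the only member called (3.33%, where 2.25% of 13581 genes were higher and 1.43% lower with NACET). ELOVL6 was in NRF2 ΔC cells again the only member called (3.33%, where 5.09% of 13489 genes were higher and 3.22% lower), at 74.2, 86.0 and 90.5 against 46.2, 42.1 and 44.5 CPM (log2 fold change 0.94, SE 0.12, adjusted p = 0.00596). Both shares are near or below those of all genes.

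All 30 members had positive differences between NACET and H2O2 in control cells (median 0.45, against 0.007 over all genes), and 27 of 30 in NRF2 ΔC cells (median 0.34, against 0.007). SCD had the largest value in control cells, 1.13 (SE 0.36, adjusted p = 0.106), with 466, 541 and 234 CPM with NACET and 204, 257 and 114 CPM with H2O2. INSIG1 had the largest in NRF2 ΔC cells, 0.99 (SE 0.27, adjusted p = 0.0557). With the replicate block 7 members were higher with NACET in control cells (23.3%, where 4.86% of all genes were higher), namely SCD (1.12), INSIG1 (1.10), ELOVL6 (0.77), IDI1 (0.74), FADS2 (0.72), STARD4 (0.71) and SQLE (0.60). With it, 5 were higher in NRF2 ΔC cells (16.7%, where 9.79% of all genes were higher), namely SCD (0.97), INSIG1 (0.97), ELOVL6 (0.94), ACACA (0.67) and IDI1 (0.67). FADS2 is a fatty acid desaturase, SQLE the squalene epoxidase and ACACA the acetyl-CoA carboxylase that commits carbon to fatty acids. Without control NACET replicate 3 the count in control cells was 12, and without H2O2 replicate 1 or NACET replicate 2 it was 0. Its counterpart in NRF2 ΔC cells was 5 without H2O2 replicate 1.

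Untreated NRF2 ΔC and control cells differed in no member by edgeR (0.729% of 13710 genes were higher and 3.12% lower in NRF2 ΔC cells), and by DESeq2 in none. At an unadjusted p under 0.05 there was 1, SREBF2, with 278, 239 and 195 CPM in NRF2 ΔC cells and 367, 353 and 268 CPM in control cells (log2 fold change -0.47, SE 0.17, adjusted p = 0.255), and its groups overlapped. The members' median was -0.15 against 0.013 over all genes, and 23 of 30 had negative values, between -0.52 (STARD4) and -0.006 (EBP). Leaving out single libraries gave values of both signs in 15 members. Members at an unadjusted p under 0.05 then numbered 9 without control replicate 3, 8 without NRF2 ΔC replicate 1 and 0 without each of the others, and none was called. The control group of this comparison holds the high replicate 2 described above, whose part in these values was not tested.

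The effect of each treatment was then compared between the cell kinds, as the log2 fold change in control cells minus that in NRF2 ΔC cells. For NACET no member differed (0 of 30 at an unadjusted p under 0.05, and none by DESeq2), where 0.0643% of 14002 genes were called with a positive and 0% with a negative difference. For H2O2 no member differed either (0 of 30 at an unadjusted p under 0.05, and none by DESeq2), where 0.0143% of 13987 genes were called positive and 0.00715% negative. With the replicate number as a block within each cell kind, still no member was called. In that fit 3 members had an unadjusted p under 0.05 for each treatment. It called 126 of all genes for NACET and 967 for H2O2, against 9 and 3 without the block. These misses do not show that the cell kinds responded alike. For H2O2, the 95% interval of the difference ran from -1.0 to 1.11 for INSIG1, from -0.41 to 0.53 for LSS and from -0.73 to 1.14 for HMGCS1. For NACET, it ran from -0.36 to 0.56 for ELOVL6 and from -0.82 to 1.43 for HMGCS1. The largest size of a difference with H2O2 was -0.37 for TM7SF2 (95% interval -0.84 to 0.11) and SREBF1 (-0.89 to 0.16).

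Genes around both routes were read from lists drawn up by pathway, with earlier results of these data known. Among genes of SREBP processing, INSIG2, the second retention protein, fell with H2O2 in both cell kinds. It was the only 1 of the 7 genes called, where 3.37% (control) and 5.55% (NRF2 ΔC) of all genes fell. INSIG2 had 69.4, 77.5 and 69.8 CPM in untreated control cells and 36.4, 28.5 and 35.6 CPM with H2O2 (log2 fold change -1.11, SE 0.12, adjusted p = 0.00217). Its NRF2 ΔC libraries had 81.0, 49.4 and 62.8 CPM untreated and 35.5, 30.6 and 26.2 CPM with H2O2 (log2 fold change -1.09, SE 0.20, adjusted p = 0.0135). Both INSIG genes were thus lower with H2O2 in each cell kind, and no library with H2O2 reached the lowest untreated one. INSIG2 stayed called in 6 of 6 leave-one-out fits in control cells and 4 of 6 in NRF2 ΔC cells. SCAP, which escorts SREBPs out of the endoplasmic reticulum, was not called. INSIG2 was higher with NACET than with H2O2 in control cells (1.03, called in 6 of 6 such fits) and NRF2 ΔC cells (0.64, called in 1 of 6). Over all genes 2.25% were higher in control cells and 5.09% in NRF2 ΔC cells.

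On the export side, ABCA1, the cholesterol efflux pump and a target of the sterol-activated LXR receptors, rose with H2O2 as the only gene called among the 13 tested of 14 efflux, LXR and storage genes in control cells and the 12 tested in NRF2 ΔC cells. It had 16.0, 12.1 and 15.2 CPM in untreated control cells and 26.2, 27.9 and 25.4 CPM with H2O2 (log2 fold change 0.88, SE 0.13, adjusted p = 0.00569). The NRF2 ΔC libraries had 15.5, 24.9 and 19.7 CPM untreated and 39.9, 50.6 and 31.1 CPM with H2O2 (log2 fold change 0.99, SE 0.23, adjusted p = 0.0273). Over all genes 2.96% rose in control and 4.26% in NRF2 ΔC cells. A single call on so short a list is no result about the list. ABCA1 stayed called in 6 of 6 leave-one-out fits in control cells and 3 of 6 in NRF2 ΔC cells. The LXR genes NR1H2 and NR1H3 were not called, and ABCG1 had too few reads to be tested. MYLIP, which marks lipoprotein receptors for degradation, was lower in untreated NRF2 ΔC than in control cells, with 2, 1 and 2 reads against 23, 24 and 34 reads (adjusted p = 0.0016). Per read on genes the ratio was 0.0594 (exact 95% interval 0.0188 to 0.144, counting error only). MYLIP was the only 1 of 13 tested to be called between the untreated cell kinds, where 3.12% of all genes were lower.

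**Figure D5:**
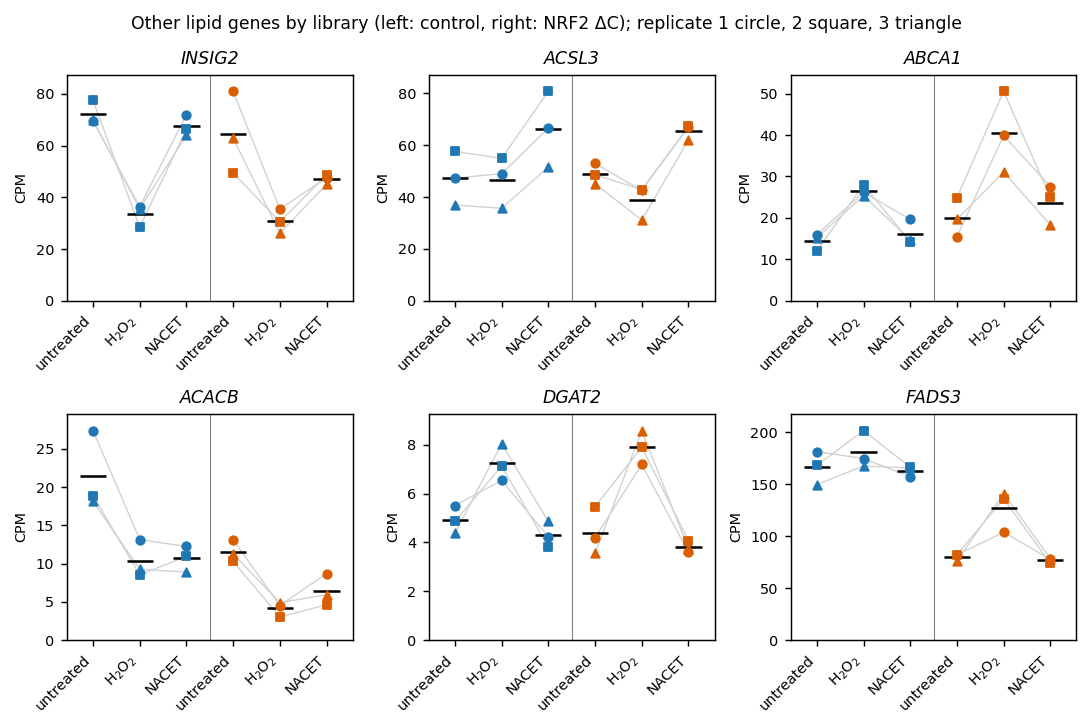
CPM (vertical axes, from 0) of INSIG2, ACSL3, ABCA1, ACACB, DGAT2 and FADS3 in each library, by treatment, for control cells (blue, left) and NRF2 ΔC cells (orange, right), with means as black bars, replicate numbers as symbols and grey lines joining libraries of the same number. INSIG2 and ACACB are lower and ABCA1 is higher with H2O2 than untreated in both cell kinds.

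Among 17 other genes of fatty acid and glycerolipid synthesis, of which 16 were tested, H2O2 lowered ACACB, the mitochondrial acetyl-CoA carboxylase whose product restrains fatty acid oxidation, in control cells (27.4, 18.9 and 18.1 to 13.1, 8.53 and 9.27 CPM, log2 fold change -1.06, adjusted p = 0.0188) and in NRF2 ΔC cells (13.1, 10.3 and 11.3 to 4.52, 3.03 and 4.91 CPM, log2 fold change -1.49, adjusted p = 0.00671). LPIN3, a phosphatidate phosphatase, fell in control cells (-0.74, adjusted p = 0.0107). DGAT2, which makes triglyceride, and FADS3, a desaturase, rose in NRF2 ΔC cells (0.81 and 0.64, adjusted p = 0.0436 and 0.0298). Of the 16 tested, 2 fell and 0 rose in control cells, where 3.37% of all genes fell and 2.96% rose. In NRF2 ΔC cells 1 fell and 2 rose, where 5.55% of all genes fell and 4.26% rose. ACACB also fell with NACET in control cells (-0.997, adjusted p = 0.0388, called in 1 of 6 leave-one-out fits) and was lower in untreated NRF2 ΔC than in control cells (-0.90, adjusted p = 0.0354, called in 2 of 6), as was FADS3 (-1.06, adjusted p = 0.00128, called in 6 of 6). These were 1 of 16 with NACET (1.35% of all genes fell) and 2 of 16 between the cell kinds (3.12% were lower). With H2O2, ACACB was called in 5 of 6 such fits in control cells and 6 of 6 in NRF2 ΔC cells, LPIN3 in 5, FADS3 in 2 and DGAT2 in 1. Between NACET and H2O2, DGAT2 was lower with NACET in control cells (-0.73) and NRF2 ΔC cells (-1.03), ABCA1 was lower in control cells (-0.69), and in NRF2 ΔC cells FADS3 was lower (-0.70) and ACSL3, which activates long-chain fatty acids, higher (0.78). Of these, DGAT2 and ABCA1 in control cells were each called in 1 of 6 leave-one-out fits, and in NRF2 ΔC cells DGAT2 in 3 and FADS3 and ACSL3 in 2. Over all genes 1.43% were lower with NACET in control cells, and in NRF2 ΔC cells 3.22% were lower and 5.09% higher.

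Of 11 genes of fatty acid oxidation, PDK4, a kinase that restrains pyruvate dehydrogenase, fell with H2O2 in NRF2 ΔC cells (-0.93, adjusted p = 0.0228, called in 2 of 6 leave-one-out fits), and none was called in control cells or with NACET. The 1 call of 11 in NRF2 ΔC cells stands beside 5.55% of all genes that fell there. None of the 8 genes of the isoprenoid branch, which carry farnesyl and geranylgeranyl units to proteins, dolichol and ubiquinone, was called in any comparison. At the shares called over all genes, a list of 8 may hold no call by its size alone. Their median with H2O2 was 0.16 (control) and 0.046 (NRF2 ΔC). With the replicate block ABCA1 was also lower with NACET than with H2O2 in NRF2 ΔC cells (-0.74) while ACACB was higher (0.64), LPIN3 fell with H2O2 in NRF2 ΔC cells (-0.67), and ACACB (-0.88) and PDK4 (-0.65) fell with NACET in NRF2 ΔC cells.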

How the data were processed

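Poly(A) RNA of 18 ARPE-19 samples was sequenced from TruSeq libraries. The authors mapped reads to hg19 with TopHat2 2.1.0 and counted them per gene with HTSeq 0.11.2 (submitters' processing notes), and the gene annotation is not given in the sources used here. The deposited values are raw read counts per gene symbol, without normalization. Their 5 summary lines (reads on no gene 15.0 to 17.5% of a library) stayed out of library sizes. SC5D stands as SC5DL in the files. Groups and replicate numbers came from the labels, which do not say whether replicates are separate cultures, so p-values measure the spread between these samples.

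Genes were kept by filterByExpr, scaled with TMM and tested with edgeR 4.0.16 (R 4.3.3) by the quasi-likelihood test on the 6 libraries of each comparison, and on 12 for the interactions, with Benjamini-Hochberg adjustment over all genes tested. Calls needed an adjusted p below 0.05 together with a log2 fold change of 0.6 or more in size, and for the interactions the adjusted p alone. The code was tested on simulated counts. CPM are TMM-scaled over 18 libraries. Alternatives were DESeq2 1.42.0, RLE scaling, no filter, no fold limit, 1 fit of 18 libraries, the replicate number as a block and leaving out each library. For the interactions the replicate number was also used as a block within each cell kind. Exon lengths and overlaps came from GENCODE v44lift37 on GRCh37. Every member called was described, uncalled members were given by the largest values, and of the pathway lists called genes only, at most 3 per list and comparison. Members and lists were chosen with earlier results of these data known. Same-numbered libraries deviated together within a cell kind (correlations 0.471 to 0.874 over 11007 genes) but not for number 2 across cell kinds (-0.26 for the untreated groups). One pathway gene is not reported here.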

Additional observations from a re-analysis of the deposited data

How the results depend on the processing

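Counts of called members depended on the test and on single libraries. DESeq2 called 7 members with H2O2 in control cells (4 by edgeR), 1 with NACET in NRF2 ΔC cells (0), and, for NACET against H2O2, 3 in control (1) and 5 in NRF2 ΔC cells (1). The replicate block gave 9, 2, 7 and 5 for the same comparisons, against 6 for H2O2 in NRF2 ΔC cells (4 without it), and changed no count for NACET in control cells, the cell kinds or the interactions. Without a filter the counts were 2 for NACET against H2O2 in NRF2 ΔC cells and 5 for H2O2 in control cells, and without a fold limit they were 6 and 5 for H2O2 in control and NRF2 ΔC cells. Leaving out single libraries gave 0 to 1 (NACET in control cells), 0 to 11 (H2O2 in control cells), 0 to 1 (NACET in NRF2 ΔC cells), 1 to 7 (H2O2 in NRF2 ΔC cells), 0 to 12 and 1 to 5 (NACET against H2O2 in control and NRF2 ΔC cells). The causes were not tested. RLE scaling and 1 fit of 18 libraries kept the edgeR counts of members. Among the genes named, leaving out single libraries ended 33 calls of members and 55 of pathway genes and added 16 of members, and 1 fit of 18 libraries ended 1 call of a pathway gene. Of the members called or past 0.6 in size with all libraries, 1 turned direction, STARD4 for NACET against H2O2 in NRF2 ΔC cells, which had 0.61 with all libraries, -0.077 without NACET replicate 1 and up to 1.27 without another (H2O2 replicate 1). Leaving out single libraries also gave values of both signs for smaller differences, in 14 members (NACET in control cells), 5 (H2O2 in control cells), 11 (NACET in NRF2 ΔC cells) and 7 (H2O2 in NRF2 ΔC cells). Between the untreated cell kinds it did so in 15 members. Depth limits genes with few reads, such as MYLIP, and the spread between 3 libraries limits the members.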
